A study of Mus musculus with 12 samples.

Results

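Mouse dendritic cells (DC) were followed over the first day with poly(I:C) for their TRIM (tripartite motif) genes. Poly(I:C) is synthetic double-stranded RNA that stands in for that of a virus. The members are all probe sets of the array whose annotation names exactly 1 gene, with a symbol made of Trim and a digit. They numbered 111 probe sets of 58 genes, out of 45037 probe sets and 18193 genes with a symbol of their own. A further 5 probe sets that name a TRIM gene together with another gene were left out. Cells were grown from bone marrow of C57BL/6 mice for 6 days with GM-CSF and were then plated and given poly(I:C) for 0, 1, 3, 6, 12 or 24 h. By the labels the dose of GM-CSF was 10 ng/ml and that of poly(I:C) 2.5 μg/ml; the methods of the study state higher doses of both. The labels state the age of the mice as 3 to 4 months in one place and as 8 to 10 weeks in another. Each of the 12 Affymetrix arrays holds the RNA of 1 time in 1 of 2 experiments, and the CD11c-selected cells of an experiment came from 1 mouse, so n = 2 at every time. Untreated cells were arrayed only at 0 h, and the effects of poly(I:C) and of time in culture cannot be told apart.

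Most TRIM proteins carry a RING domain, which lets them act as ubiquitin ligases, followed by 1 or more B-box zinc fingers and a coiled coil. Their last domain differs between subfamilies and often binds the target, as the PRY-SPRY domain of Trim21 and Trim25 does. Many members are known as interferon-stimulated genes, and several act in the sensing of viral RNA or restrict viruses directly. Trim24, Trim28 and Trim33 form a nuclear branch that represses transcription. Trim14, Trim16, Trim29 and Trim44 lack the RING domain, so the name ubiquitin ligase does not describe every member.

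The values are MAS5.0 signal intensities scaled by the core facility of the study to a trimmed mean of 500 on each array, and they carry no unit of RNA amount. The 2 arrays of a time correlated at 0.909 to 0.954 across probe sets. The DC label was checked on fixed markers. Itgax, which encodes CD11c, read 16200 to 24700 over the 12 arrays and Cd74 read 23200 to 34900, while Zbtb46 read 165 to 564 and Flt3 stayed at or under 89.9. Macrophage markers were present too, with Csf1r at 22100 to 32300. Their summed intensity was 28600 to 31300 at 0 h and 29900 to 50500 later, and 2 of the 5, Mertk and Fcgr1, were higher at 12 h. The natural killer cell sum went from 156 to 220 at 0 h to 134 to 1750 later through Klrk1, while Ncr1, a defining marker of those cells, never passed 54.9. The neutrophil sum was 2440 to 2690 at 0 h and 1640 to 3500 later through S100a8, while S100a9 stayed at or under 110, Mpo 104 and Elane 87.4. The summed T cell markers stayed at or under 102 on every array, those of B cells at or under 266 and those of mast cells at or under 161. The part of these other markers in the TRIM results was not tested.

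Of the 111 probe sets, 67 of 38 genes reached a mean intensity of 78.44, which is the median over the whole array, and entered the test. A probe set is said to have risen or fallen where limma, fitted across all 22519 probe sets above that level with time and experiment as terms, gave an adjusted p under 0.05. Changes are log2 fold changes of the intensity plus 16, which understates changes of dim probe sets. The family divided into both directions. In all, 20 probe sets of 13 genes rose at 1 or more times, 19 of 12 genes fell, and 28 passed at no time. Calls at any time were not counted over all tested probe sets, so shares are compared only time by time, below. No probe set, and no gene, passed in both directions.

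At 1 h no member had moved in either direction, where 0.0533% of all tested probe sets rose and 0% fell. By unadjusted p under 0.05 limma gave 1 member higher and 0 lower. At 3 h 9 of 67 members (13.4%) had risen, against 1.01% of all tested probe sets, and 0 had fallen, against 0.0444% (1 lower by unadjusted p). At 6 h 16 (23.9%) had risen against 3.62%, and 1 had fallen against 1.95%. At 12 h 17 (25.4%) had risen against 9.32%, and 16 (23.9%) had fallen against 18.7%. At 24 h 17 had risen against 9.23%, and 13 (19.4%) had fallen against 17.5%. The share of members that rose was above the background at each time from 3 h on, while the share that fell stayed near it. The median change of the members was -0.02 at 12 h, beside -0.23 over all tested probe sets. Fewer cells of a type and less RNA per cell cannot be told apart in such bulk samples.

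**Figure D1:**
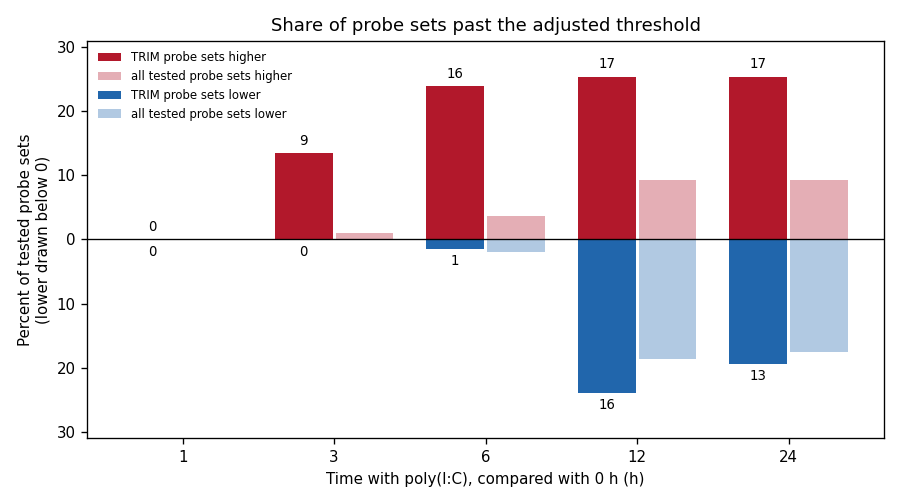
Percent of tested probe sets past the adjusted threshold at each time against 0 h (x axis, h), with the higher ones drawn above 0 and the lower ones below it. Dark bars are the 67 TRIM probe sets, with their number printed, and pale bars all 22519 tested probe sets: 9, 16, 17 and 17 members had risen from 3 h on, while falls numbered 1 at 6 h, 16 at 12 h and 13 at 24 h.

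The counts moved with single arrays. Each setting without an array named here also gave fewer calls over all tested probe sets, at the same time and in the same direction. The risers at 3 h came to 5 without the 3 h array of experiment 1 and to 6 without that of experiment 2. In experiment 1, leaving out the array of 0 h gave 6 at 3 h and 8 at 6 h, and leaving out that of 6 h gave 8 at 6 h. The fallers at 12 h came to 6 without the 0 h array of experiment 2, to 9 without the 0 h array of experiment 1 and to 8 without the 12 h array of experiment 2. Those at 24 h came to 3 and 6 without the 0 h array of experiment 2 and of experiment 1. With no replicate block, the risers numbered 3 at 3 h and 10 at 6 h, and the fallers 4 at 24 h. Over all 22519 tested probe sets the risers then numbered 88 and 350, against 228 and 815 in the main fit. The fallers over all of them at 24 h numbered 1671, against 3933. The split at 24 h, 17 higher and 13 lower, was 17 and 8 with arrays centred on their median and 19 and 7 with quantile normalization. Quantile normalization gave 20 and 11 at 12 h. Over all tested probe sets the split at 24 h was 2078 and 3933 in the main fit. It was 2417 and 2736 with arrays centred on their median and 2443 and 3298 with quantile normalization.

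**Figure D2:**
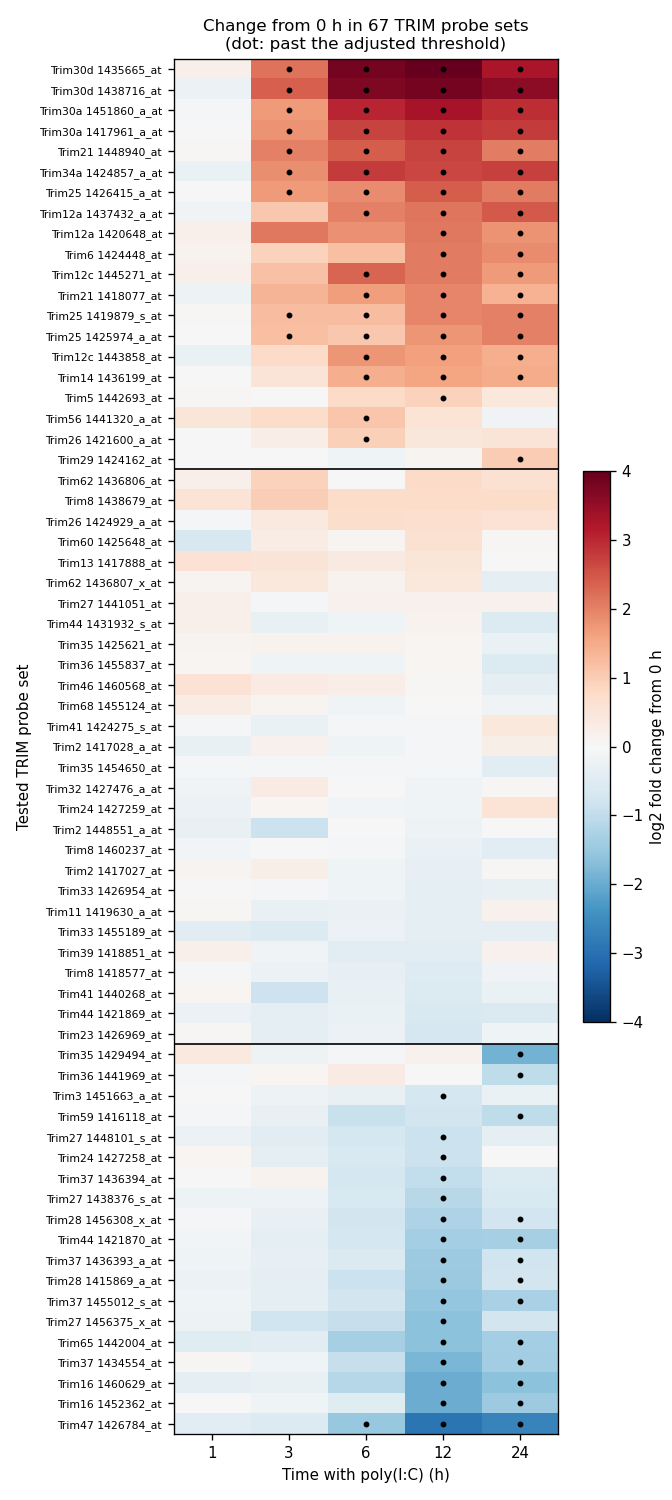
Log2 fold change from 0 h (colour) of each of the 67 tested TRIM probe sets (rows) at 1, 3, 6, 12 and 24 h (columns). A dot marks a change past the adjusted threshold, and lines separate the 20 probe sets that rose, the 28 that passed at no time and the 19 that fell.

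The risers passed at different times. Trim21, Trim25, Trim30a, Trim30d and Trim34a had risen by 3 h and were still higher at 24 h. Trim12a, Trim12c and Trim14 first passed at 6 h and were still higher at 24 h. Trim26 and Trim56 passed at 6 h only. Trim6 passed at 12 and 24 h, Trim5 at 12 h only and Trim29 at 24 h only. The times at which genes first passed were not compared by a test. Among the risers the changes at 12 h ran from 0.91 to 3.99, with a median of 2.09.

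Trim25 is the ligase known for building ubiquitin chains on and around the RNA sensor RIG-I (Ddx58). In time order (0, 1, 3, 6, 12 and 24 h), its probe set 1419879_s_at read 2419, 2402, 6608, 7165, 9400 and 13010 in experiment 1 and 2810, 3050, 5610, 5355, 10720 and 8473 in experiment 2 from 0 to 24 h. Both arrays of every time from 3 h on lay above both arrays of 0 h, and those of 1 h did not. The rise was 1.22 (SE 0.23, adjusted p = 0.0373) at 3 h and 2.00 (SE 0.23, adjusted p = 0.000263) at 24 h. The other Trim25 probe sets rose at the same times, by up to 2.42 (SE 0.16, adjusted p = 5.01e-06) at 12 h for 1426415_a_at.

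Trim21 is a ligase and a cytosolic receptor for the constant part of antibodies. Its probe set 1448940_at read 459.4, 499.1, 2586, 3807, 4790 and 3622 in experiment 1 and 611.9, 591.1, 1847, 2184, 2660 and 1399 in experiment 2 from 0 to 24 h. The arrays from 3 h on all lay above those of 0 h, and experiment 1 was the higher of the 2 at each of them. The rise was 2.01 (SE 0.37, adjusted p = 0.0277) at 3 h and 2.71 (SE 0.37, adjusted p = 0.000581) at 12 h. The other Trim21 probe set, 1418077_at, passed from 6 h on and rose by 1.94 (SE 0.28) at 12 h.

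In the RefSeq annotation 10 TRIM genes stand next to one another on chromosome 7, in the order Trim6, Trim34a, Trim5, Trim12a, Trim34b, Trim12c, Trim30b, Trim30c, Trim30a and Trim30d, with 1 other protein-coding gene among them. Trim34b, Trim30b and Trim30c have no probe set of their own here. The 7 that do were all tested and all rose. Of the 31 tested TRIM genes elsewhere 6 rose, 12 fell and 13 did not pass. The share of all tested genes that rose or fell at any time was not counted. Genes of this run are related, and 1 probe set left out of the members names both Trim30a and Trim30d. How far other probe sets read a neighbour was not examined here, so the genes may not be separate observations.

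Trim30a is known in mouse cells as a brake on NF-κB signalling that acts through the adaptors Tab2 and Tab3. Its probe set 1417961_a_at read 3799, 3982, 14230, 22800, 23970 and 24640 in experiment 1 and 3113, 2953, 10080, 22320, 27930 and 23060 in experiment 2 from 0 to 24 h. No array from 3 h on came near those of 0 and 1 h, and the levels from 6 to 24 h lay close together. The rise at 12 h was 2.91 (SE 0.18, adjusted p = 3.19e-06), and for 1451860_a_at it was 3.30 (SE 0.16, adjusted p = 6.42e-07).

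Trim30d, the neighbour of Trim30a, had the largest change in the family. Its probe set 1435665_at read 464.1, 568.9, 2686, 7434, 8625 and 5831 in experiment 1 and 390.6, 418.3, 1441, 5352, 5719 and 3087 in experiment 2 from 0 to 24 h. Every array from 3 h on was above those of 0 and 1 h in both experiments. The rise was 2.17 (SE 0.20, adjusted p = 0.000232) at 3 h, 3.99 (SE 0.20, adjusted p = 7.21e-07) at 12 h and 3.27 (SE 0.20) at 24 h. Its other probe set, 1438716_at, rose by 3.81 (SE 0.25) at 12 h.

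Trim34a has a PRY-SPRY domain. Its probe set 1424857_a_at read 519.8, 575.8, 2697, 5309, 4541 and 5000 in experiment 1 and 576, 361.5, 1521, 2921, 2797 and 2782 in experiment 2 from 0 to 24 h. The arrays from 3 h on lay above those of 0 h, and experiment 2 was the lower of the 2 throughout that span. The largest rise was 2.81 (SE 0.24) at 6 h, with 2.73 (SE 0.24, adjusted p = 4.49e-05) at 24 h.

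Trim12a and Trim12c are mouse relatives of the primate restriction factor TRIM5α. The Trim12a probe set 1437432_a_at read 374.8, 318.8, 858.9, 2137, 2097 and 1703 in experiment 1 and 186.2, 174.7, 382.2, 576, 725.5 and 1371 in experiment 2 from 0 to 24 h. The 3 h arrays were already above those of 0 h, but that change did not pass, and the rise was 2.01 (SE 0.32, adjusted p = 0.00461) at 6 h and 2.46 (SE 0.32, adjusted p = 0.000473) at 24 h. The Trim12c probe set 1443858_at read 495.9, 509.5, 1082, 2180, 1941 and 1723 in experiment 1 and 388.1, 253.9, 535.4, 1087, 1014 and 881 in experiment 2 from 0 to 24 h. Its arrays from 3 h on lay above those of 0 h, and the rise passed from 6 h, at 1.78 (SE 0.21, adjusted p = 0.000591). With no replicate block that change had an adjusted p of 0.179. The other Trim12c probe set, 1445271_at, rose by 2.34 (SE 0.25, adjusted p = 0.000327) at 6 h, and the other Trim12a probe set, 1420648_at, by 2.09 (SE 0.47, adjusted p = 0.00903) at 12 h.

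The remaining genes of the run passed at fewer times. Trim6, which makes free ubiquitin chains that activate the kinase Ikbke, rose by 2.09 (SE 0.44, adjusted p = 0.00637) at 12 h, from 81.15 and 67.1 to 235.6 and 567. The call was lost without the 0 h or the 12 h array of experiment 2 (adjusted p up to 0.0783). Trim5 rose by 0.91 (SE 0.25, adjusted p = 0.0202) at 12 h, and the adjusted p came to between 0.00606 and 0.219 over the other settings tried.

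**Figure D3:**
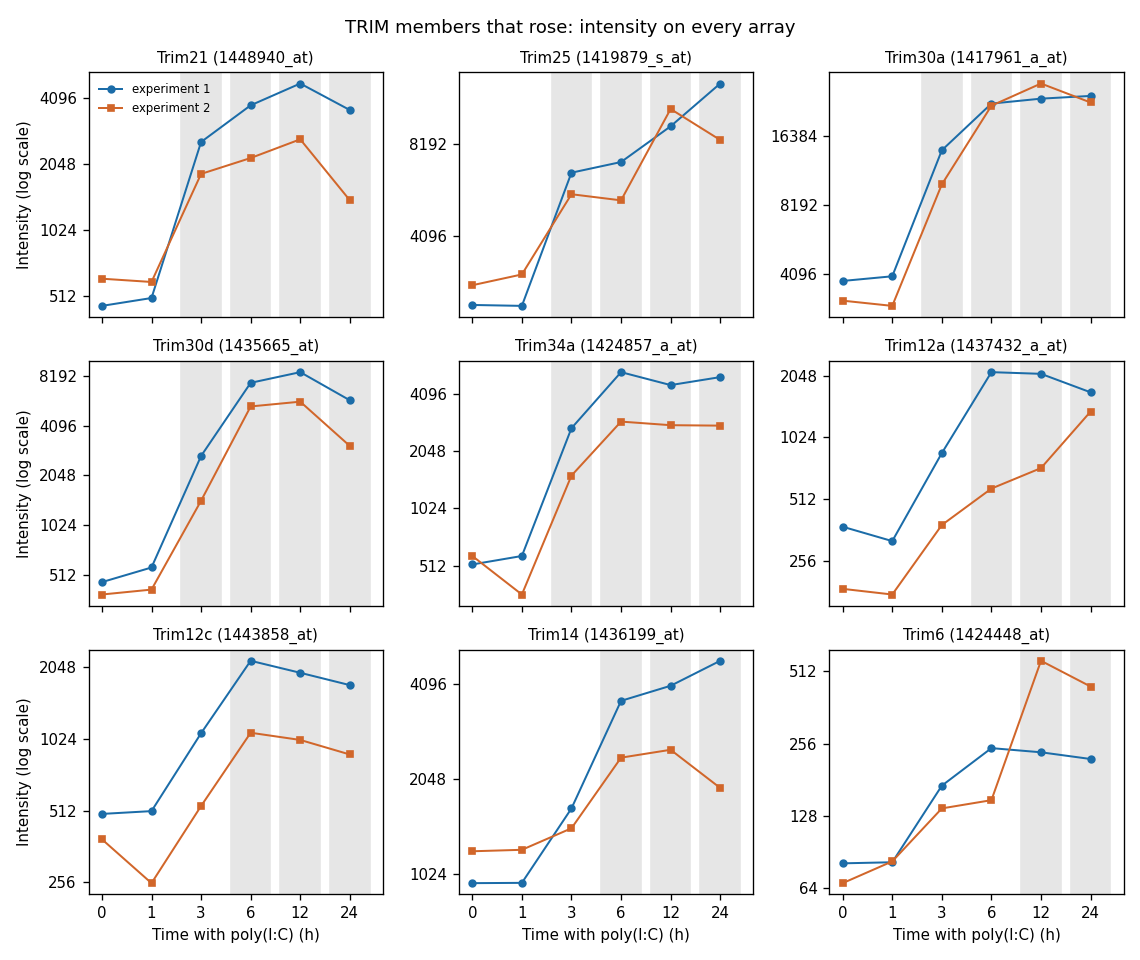
Intensity (y axis, log scale, a different range in each panel) of 9 TRIM probe sets that rose, against the time with poly(I:C) (x axis, h, not to scale), for experiment 1 (circles) and experiment 2 (squares). Grey bands mark times past the adjusted threshold against 0 h; no panel passed at 1 h, and both arrays of 3 h read above those of 1 h of the same experiment in all 9.

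Between neighbouring times the changes that passed lay mostly between 1 and 6 h. From 1 to 3 h 9 members rose, against 0.861% of all tested probe sets, and 0 fell, against 0.0666% (limma, 1 lower by unadjusted p). They were probe sets of Trim21, Trim25, Trim30a, Trim30d and Trim34a, and the largest step was 2.63 (SE 0.25, adjusted p = 0.00033) for Trim30d. From 3 to 6 h 3 rose, against 0.528%, and 0 fell, against 0.0622% (4 lower by unadjusted p). Those 3 were Trim30a (1.34, SE 0.16, adjusted p = 0.00757 for 1451860_a_at) and both Trim30d probe sets, and none passed with no replicate block. Over all tested probe sets 3 then rose, against 119 in the main fit. From 6 to 12 h no member passed in limma, against 0.608% higher and 1.13% lower, with 3 higher and 8 lower by unadjusted p. From 12 to 24 h 0 rose, against 1.87% (8 by unadjusted p), and 1 fell, against 2.25%. That 1 was Trim35 (1429494_at), at -2.04 (SE 0.42, adjusted p = 0.0314), and without 1 of several arrays it did not pass.

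Since type I interferon acts on genes through an element bound by the factors ISGF3 and IRF, the core of that element, written GAAANNGAAA or TTTCNNTTTC on the other strand, was searched in RefSeq promoter windows of 250 bases before and 50 after each gene start (build GRCm38.p6). Windows were found for 47 of the 58 TRIM genes. A match stood in those of 8 of the 11 genes with a window that rose (72.7%), in 0 of the 7 that fell, in 1 of the 10 that were tested and not called (10%) and in 0 of the 19 that were not tested, beside 3.99% of all 27025 genes with a window and 3.44% of the 32851 windows. The motif was chosen with the risers known and 6 of the 8 genes lie in the run on chromosome 7, so these counts are a description. The 30 bases around each match are given so that the neighbours can be compared; each reads 5′ to 3′ on the strand of its gene, with the matched bases in capitals:
Trim21: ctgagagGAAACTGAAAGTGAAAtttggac
Trim26: cttccgaTTTCACTTTCCTTTTCtcgggcc
Trim34a: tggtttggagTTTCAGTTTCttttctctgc
Trim5: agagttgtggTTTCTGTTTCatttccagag
Trim12a: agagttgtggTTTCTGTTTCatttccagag
Trim12c: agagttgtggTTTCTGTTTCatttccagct
Trim30a: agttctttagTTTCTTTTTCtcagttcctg
Trim30a, second start: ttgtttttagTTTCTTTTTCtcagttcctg
Trim30d: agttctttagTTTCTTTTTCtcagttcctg
Trim2: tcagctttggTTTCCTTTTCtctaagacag

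The Trim21 window lies at chr7:102565447-102565476 (minus strand) and holds 2 overlapping matches, as does that of Trim26 at chr17:36836979-36837008 (plus strand). The others hold 1 match each, at chr7:104244457-104244486 for Trim34a (plus strand), chr7:104288136-104288165 for Trim5, chr7:104315466-104315495 for Trim12a, chr7:104353359-104353388 for Trim12c, chr7:104465210-104465239 and, at a second annotated start, chr7:104446104-104446133 for Trim30a, chr7:104507871-104507900 for Trim30d and chr3:84212791-84212820 for Trim2 (all on the minus strand). The 30 bases of Trim5 and Trim12a are identical, and so are those of Trim30d and the first of Trim30a. Counted from 0 at the first transcribed base, the match begins at -36 from one start of Trim30a and at 2 from the other, and at -41 in Trim30d, -49 in Trim5, -29 in Trim12c and -160 in Trim26. In Trim12a and Trim34a it begins at 10 and in Trim21 at 13, after the start. The windows of Trim25, Trim56 and Trim6 hold no such letters, and those of Trim14 and Trim29 were not in the table.

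Elsewhere in the genome 4 further genes rose. Trim14, which binds the mitochondrial adaptor Mavs, read 955, 957, 1650, 3627, 4050 and 4863 in experiment 1 and 1206, 1219, 1427, 2393, 2535 and 1917 in experiment 2 from 0 to 24 h on 1436199_at. All arrays from 3 h on exceeded those of 0 h, and the experiments parted most at 24 h. Its rise was 1.56 (SE 0.35, adjusted p = 0.00887) at 12 h, with an adjusted p of up to 0.102 without 1 array (the 0 h or the 12 h array of experiment 1). Trim26, in the MHC region, rose by 0.94 (SE 0.24, adjusted p = 0.0465) and Trim56, a ligase linked to antiviral signalling, by 1.12 (SE 0.27, adjusted p = 0.0391) at 6 h. Trim29, a RING-less member, rose by 1.01 (SE 0.30, adjusted p = 0.0298) at 24 h. Trim26 and Trim56 were the least stable rises, with calls lost in 14 and 13 of 21 other settings. The call of Trim29 was lost in 6 of 21, and that of Trim5 in 6 of 20.

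The falls came later. Trim47 alone passed at 6 h, and it had the largest fall. Its probe set 1426784_at read 365, 293, 225.5, 98.55, 15.26 and 34.86 in experiment 1 and 465.4, 301.2, 344.3, 179.5, 87.37 and 72.59 in experiment 2 from 0 to 24 h. Every array after 0 h was below both arrays of 0 h, and those of 12 and 24 h were the lowest in each experiment. The changes were -1.52 (SE 0.38, adjusted p = 0.0455) at 6 h, -2.91 (SE 0.38, adjusted p = 0.000459) at 12 h and -2.67 (SE 0.38, adjusted p = 0.000815) at 24 h. Over all tested probe sets 438 were lower at 6 h in the main fit and 44 with no replicate block. That count was not made with only the 4 arrays compared. No member passed as lower at 6 h with pseudocount 1, no filter, no trend or no replicate block, or without any 1 of the 8 arrays of 0, 1, 3 and 6 h, while 10 did with only the 4 arrays compared.

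Trim28, the co-repressor that KRAB zinc finger proteins recruit to silence retroelements, fell on both of its probe sets. On 1415869_a_at it went from 1941 at 0 h to 782.6 at 12 h and 1567 at 24 h in experiment 1, and from 2005 to 609.9 and 881.4 in experiment 2. The change was -1.49 (SE 0.23, adjusted p = 0.00107) at 12 h and -0.74 (SE 0.23, adjusted p = 0.0349) at 24 h, and the step from 12 to 24 h did not pass. Trim24, its relative in the nuclear branch, fell by 0.86 (SE 0.27, adjusted p = 0.0368) at 12 h on 1427258_at, while 1427259_at did not pass. The call of 1427258_at was lost in 12 of 21 other settings. Trim33, the other relative, passed on neither of its 2 tested probe sets.

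Trim37, a ligase of peroxisomes and centrosomes, fell on 4 of 4 tested probe sets at 12 h, by 0.98 to 1.83. On 1455012_s_at it read 570.2 and 611.7 at 0 h and 169.7 and 217.9 at 12 h, a change of -1.54 (SE 0.20, adjusted p = 0.000436). Of the Trim37 calls, that of 1436394_at was lost in 6 of 21 other settings and that of 1434554_at in 1 of 20. Those of 1436393_a_at and 1455012_s_at were lost in none. Trim16 and Trim44, which have no RING domain, fell by 1.97 (SE 0.41, adjusted p = 0.00632) on 1452362_at and by 1.37 (SE 0.27, adjusted p = 0.00502) on 1421870_at at 12 h. Trim65, which modifies the RNA sensor MDA5 (Ifih1), fell by 1.65 (SE 0.39, adjusted p = 0.0116). The calls of Trim16, Trim44 and Trim65 were each lost without the 0 h array of experiment 2, with an adjusted p of 0.0659, 0.0614 and 0.101. That of Trim44 was also lost without 12 h of experiment 1, and that of Trim65 without 0 h of experiment 1 or 12 h of experiment 2. These 4 genes, Trim37 included, were below their 0 h arrays on both arrays of 12 h and of 24 h on those probe sets.

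Trim27 fell at 12 h on 3 of 4 tested probe sets, with the most on 1456375_x_at (-1.63, SE 0.49, adjusted p = 0.0312). That value rests on experiment 2, where the intensity went from 1489 to 209.5, against 1409 to 973.4 in experiment 1. The Trim27 calls were lost in 2 (1438376_s_at), 5 (1448101_s_at) and 6 (1456375_x_at) of 21 other settings. Trim3, a member with NHL repeats, fell by 0.72 (SE 0.23, adjusted p = 0.0399) at 12 h. At 24 h only, Trim36 fell by 1.02 (SE 0.28, adjusted p = 0.0233) on 1441969_at, Trim59 by 1.03 (SE 0.33, adjusted p = 0.0411), and Trim35 by 1.88 (SE 0.42, adjusted p = 0.00921) on 1429494_at. The Trim35 value came from 149.5 to 5.714 in experiment 2 and from 232.2 to 124.4 in experiment 1, and its other 2 probe sets stayed within 2-fold. The calls of Trim3 and Trim59 were lost in 16 of 21 and 15 of 20 other settings, that of Trim36 in 6 of 21 (adjusted p up to 0.266) and that of Trim35 in 3 of 20 (up to 0.225).

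**Figure D4:**
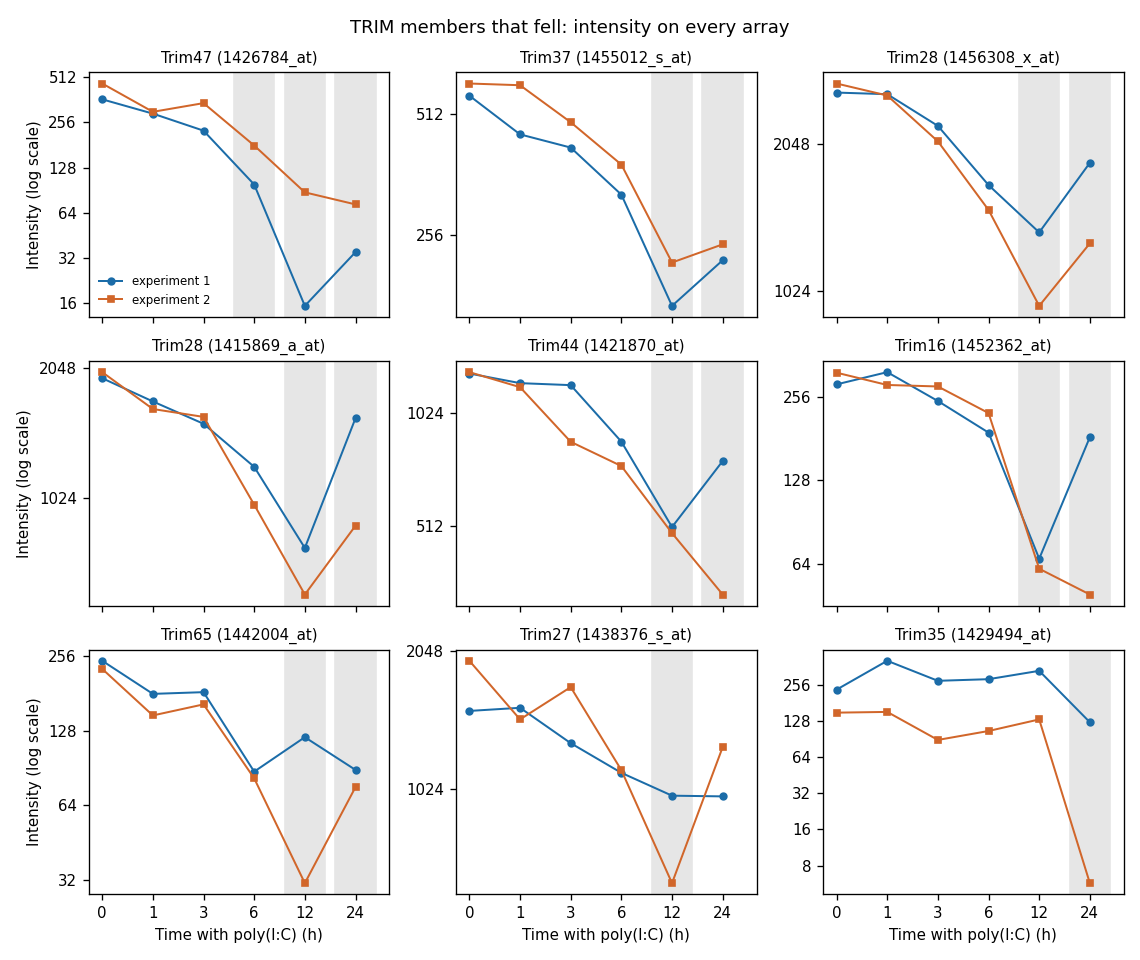
Intensity (y axis, log scale, a different range in each panel) of 9 TRIM probe sets that fell, against the time with poly(I:C) (x axis, h, not to scale), for experiment 1 (circles) and experiment 2 (squares). Grey bands mark times past the adjusted threshold against 0 h; Trim47 was already lower at 6 h, the others at 12 or 24 h, and Trim28 read higher at 24 h than at 12 h in both experiments, a step that did not pass.

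Of the 38 tested genes 13 passed at no time. The brightest of them were Trim33 (1426954_at, mean intensity 1088), Trim41 (1424275_s_at, 841.7) and Trim13 (1417888_at, 666.6), a ligase held in the endoplasmic reticulum membrane. These 3 probe sets stayed within 2-fold: the 95% intervals of their changes lay within -1 and 1 at all 5 times, with bounds of -0.72 and 0.37 for Trim33, -0.64 and 0.80 for Trim41, and -0.42 and 0.97 for Trim13. The same held for 4 further probe sets, of Trim11, of Trim27 (1441051_at) and of Trim35 (1425621_at and 1454650_at). The other 21 probe sets that were not called had an interval past 2-fold at 1 or more times, which leaves a 2-fold change possible. They include all those of Trim2, Trim8, Trim23, Trim32, Trim39, Trim46, Trim60, Trim62 and Trim68.

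In 6 of the 20 genes with 2 or more tested probe sets 1 passed and another did not. They were Trim24, Trim26, Trim27, Trim35, Trim36 and Trim44. For Trim44 the fall of 1421870_at stood beside -0.61 on 1421869_at and 0.14 on 1431932_s_at at 12 h, and for Trim26 the rise of 1421600_a_at beside 0.72 at 6 h on 1424929_a_at. Probe sets of one gene can read different transcript ends, and which end each reads was not examined here.

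The remaining 20 genes had no probe set bright enough to test, and no array read above 121.2 on their 28 probe sets. They are Trim7, Trim9, Trim10, Trim15, Trim17, Trim31, Trim40, Trim42, Trim43a, Trim45, Trim54, Trim61, Trim63, Trim66, Trim67, Trim69, Trim71, Trim72, Trim75 and Trim80. Just above the limit stood Trim16 (1460629_at, 79.23), Trim2 (1448551_a_at, 79.89) and Trim68 (81.15), and just below it Trim34a (1426093_at, 75.35), Trim23 (1456089_at, 74.47) and Trim2 (1459860_x_at, 73.92). The 44 untested probe sets are not called absent, since detection calls were not used here.

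All 17 risers and all 16 fallers of 12 h had the same sign in both experiments. The call rests on both ratios and nearly requires this, so it is no separate check. Of the risers 16 passed 2-fold in both, and of the fallers 8. The size differed between experiments: 13 of 17 risers changed more in experiment 1 at 12 h and 13 of 17 at 24 h, where 55.1% and 45.8% of all risers did. At 3 and 6 h 9 of 9 and 14 of 16 risers changed more in experiment 1, where 81.6% and 77.7% of all risers did. Of the fallers 5 of 16 changed more in experiment 1 at 12 h, beside 47.2% of all fallers. When profiles over 3 to 24 h were also held to the limits of the study on distance and correlation between experiments, 16 of the 39 called probe sets were within both. The share within both limits was not counted over all called probe sets.

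**Figure D5:**
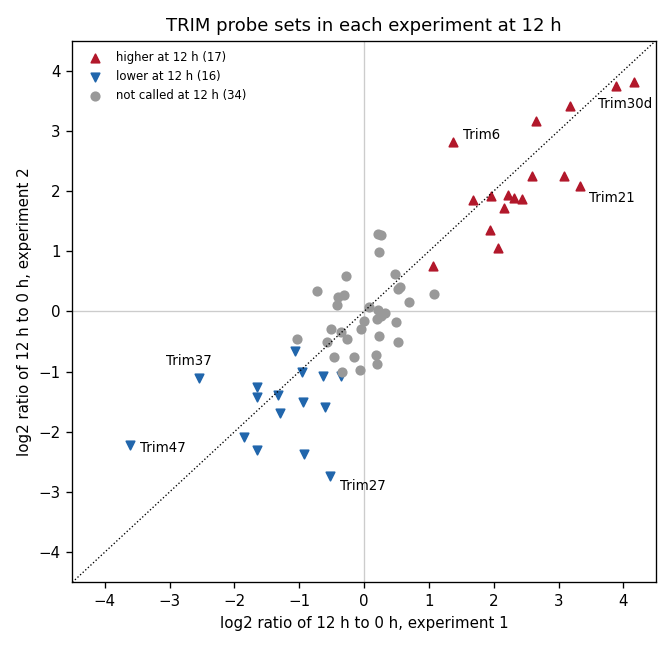
Log2 ratio of 12 h to 0 h in experiment 1 (x axis) and experiment 2 (y axis) for the 67 tested TRIM probe sets. Triangles pointing up are the 17 that were higher at 12 h, triangles pointing down the 16 that were lower and grey circles the 34 not called; called ones lie in the upper right or lower left, most risers below the dotted line of equal change, and Trim6 and 1 probe set of Trim27 changed more in experiment 2.

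Genes that work with TRIM proteins, with interferon-stimulated genes added for scale, moved as follows at 12 h, by the brightest probe set of each. Of all tested probe sets 9.32% rose and 18.7% fell, with a median change of -0.23. Of 17 tested interferon-stimulated reference genes 17 rose and 0 fell, with a median change of 6.34, above that of every TRIM member; Ifit1 rose by 7.86, Ifit3 by 7.57, Ifit2 by 8.71 and Usp18 by 6.76. Of 16 tested genes of RNA sensing 11 rose and 0 fell, with a median of 1.02 (7 rose with no replicate block). The sensors Ifih1 and Ddx58 rose by 5.18 (SE 0.20) and 4.08 (SE 0.17), the third sensor Dhx58 by 4.28 (SE 0.27) and the transcription factor Irf7, which is in both lists, by 6.43 (SE 0.31). Mavs and Irf3, at -0.16 and -0.47, did not pass. Of 13 tested E1 and E2 enzymes, which hand ubiquitin to the ligases, 2 rose and 2 fell. The 2 that rose, Uba7 (4.07, SE 0.23) and Ube2l6 (3.19, SE 0.19), are those of the ubiquitin-like protein Isg15. Ube2v2 and Ube2e3 fell by 1.36 and 0.55.

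Of 13 tested genes that work with Trim28, 1 rose and 5 fell at 12 h, beside 9.32% and 18.7% of all tested probe sets, with a median of -0.66. Hdac2 fell by 1.55 (SE 0.20), Morc2a by 1.47 (SE 0.30) and Cbx5 by 1.18 (SE 0.28), while Hdac1 rose by 0.99 (SE 0.20). Under quantile normalization, median-centred arrays, no filter or no replicate block 3 of them fell. Over all 22519 tested probe sets 4205 fell at 12 h in the main fit. With quantile normalization 3227 did, with median-centred arrays 3167 and with no replicate block 1936. Of 2 tested TRIM relatives under other names, Pml rose by 1.97 (SE 0.30, adjusted p = 0.00117), and Mefv was at 0.22 (SE 0.29).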

How the data were processed

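RNA of 12 samples was hybridized to Affymetrix mouse arrays, 1 per time and experiment. The authors' core facility computed the deposited intensity values with MAS5.0 under GCOS, on a linear scale, with each experiment processed apart; each array as deposited has a mean of 500 without its top and bottom 2%. Of 45101 probe sets 64 controls were dropped, and gene names come from GEO's platform annotation (34945 with 1 symbol, 932 with several, 9160 with none). Here log2(intensity + 16) was modelled in limma 3.58.1 under R 4.3.3 (time plus experiment as a replicate block, 12 arrays, empirical Bayes with an intensity trend, 5 residual and 5.24 prior degrees of freedom) for the 22519 probe sets whose mean was 78.44 or more, with Benjamini-Hochberg adjustment over all of them at 0.05. The test has no exact or permutation form; with 2 arrays a time, precision is limited.

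The block is the experiment. By the methods of the study the experiments differ in mouse, in date by some months, and in hybridization and normalization, which cannot be told apart. Arrays of one experiment deviated together from the means of the times (r of 0.26 to 0.66, median 0.57, over 15 pairs). The 0 h arrays serve every comparison with 0 h, so overlaps between times are not given. The members and gene lists were chosen with earlier results of these data known. Values on every array are given, on the brightest such probe set, for each gene with a probe set that passed at 3 or more of the 5 times. Statistics are given for each further called gene at the time of its largest change, on 1 or more of its called probe sets; a few other values were added after they were seen. Affymetrix names end in _s_at or _x_at where a probe set may read more than 1 gene and in _a_at where it reads several transcripts of a gene. The script was tested on simulated data. Promoter windows are from RefSeq and were searched in Python 3.11.15. Alternatives were other pseudocounts (1 and 64), filters (none, and a mean of 200), scalings, no trend, no replicate block, only the 4 arrays of the 2 times compared, each array left out, a 2-fold limit, and the consistency limits of the study (distance 1.4, correlation 0.76).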

Additional observations from a re-analysis of the deposited data

How the results depend on the processing

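The single changes kept their direction under every setting run. Of 812 refits of the 39 called probe sets, each at its largest change, 684 stayed past the threshold, 128 did not and 0 reversed, 86 of the 128 with an array left out. Trim30a, Trim30d, Trim34a, Trim47, both Trim28 probe sets, both Trim21 and all 3 Trim25 probe sets passed in every refit. Other scalings moved the median of all tested probe sets at 12 h from -0.23 to -0.14 (arrays centred on their median) or -0.09 (quantile normalization), which favours rises.

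Counts of members moved as follows, and those over all 22519 tested probe sets moved too. Over all of them, the lower ones at 6 h numbered 438 in the main fit. They numbered 366 with pseudocount 1, 287 with no trend, 588 with pseudocount 64 and 379 with quantile normalization. Members lower at 6 h (1) became 0 with pseudocount 1, no filter or no trend, 3 with pseudocount 64, 4 with a mean of 200, and 2 with quantile normalization. Those lower at 24 h (13) became 8 with a mean of 200 or median-centred arrays and 7 with quantile normalization. The filter at 200 left out 1460629_at of Trim16, 1429494_at of Trim35, 1434554_at of Trim37, Trim59 and Trim65, with means of 79.23 to 190.3. The 32 called probe sets still tested there all passed at their largest change. Those higher from 3 to 6 h (3) became 5 with median-centred arrays and 0 with no trend, and the 1 lower from 12 to 24 h became 0 with pseudocount 1, no filter, a mean of 200 or no trend. At a mean of 200 that 1, 1429494_at of Trim35, was not tested. Over all tested probe sets 119 were higher from 3 to 6 h in the main fit, 157 with median-centred arrays and 18 with no trend. The lower ones from 12 to 24 h numbered 507 in the main fit and 142 with no trend. With no replicate block, those higher were 3 at 3 h, 10 at 6 h, 4 from 1 to 3 h and 0 from 3 to 6 h, and those lower were 0 at 6 h, 4 at 24 h and 0 from 12 to 24 h. Over all tested probe sets that setting gave 82 higher from 1 to 3 h, against 194 in the main fit, and 3 from 3 to 6 h, against 119. The lower ones numbered 44 at 6 h, against 438, and 0 from 12 to 24 h, against 507. With only the 4 arrays compared, those higher were 17 at 3 h, 15 from 1 to 3 h, 11 from 3 to 6 h and 3 from 6 to 12 h, and those lower were 2 at 3 h, 10 at 6 h, 3 at 24 h, 2 from 1 to 3 h, 4 from 3 to 6 h, 4 from 6 to 12 h and 0 from 12 to 24 h. By 2-fold in both experiments within the consistency limits, 7 were higher at each of 6, 12 and 24 h, and 0, 3 and 1 were lower. Counts over all tested probe sets were not made under that rule or with only the 4 arrays compared. These member counts therefore have no background beside them. With 1 array left out, those higher ranged from 5 to 13 at 3 h, 8 to 18 at 6 h, 0 to 7 from 3 to 6 h, 0 to 3 from 6 to 12 h and 0 to 5 from 12 to 24 h, and those lower from 0 to 8 at 6 h, 6 to 17 at 12 h, 3 to 14 at 24 h, 0 to 6 from 6 to 12 h and 0 to 7 from 12 to 24 h. Over all tested probe sets the counts also came out both below and above the main fit at each of these times and steps. The time left with 1 array is then assumed to vary like the others. Apart from the probe sets left out at a mean of 200, the cause of these moves was not tested. Counts of the gene lists moved by over 1.5 times in 24 of 400 refits. Low signal set a further limit: no change could be judged for the 44 untested probe sets, and on each array between 19.5% and 23.1% of signals were below 16.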
